A study of Mus musculus with 2 samples.

Results

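Integrins, laminins and nidogens join cells to the extracellular matrix. Integrins are cell surface receptors made of 1 alpha and 1 beta chain, and the alpha chain largely sets whether the pair binds collagen, laminin or proteins with the Arg-Gly-Asp (RGD) motif such as fibronectin. Laminins are cross-shaped trimers of an alpha, a beta and a gamma chain that polymerise into the basement membrane, the sheet under epithelia and around muscle, vessels and nerves. Nidogens tie the laminin network to type IV collagen. Fibroblasts are known for fibronectin and collagen receptors and for supplying laminin and nidogen chains to the basement membranes of neighbouring tissue.

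The genes were taken by symbol from the deposited count table. All numbered or lettered integrin alpha genes, the integrin beta genes, the laminin alpha, beta and gamma genes and both nidogens were kept, which gave 39 of 17260 genes, made up of 26 integrin chains, 11 laminin chains and 2 nidogens. Names decided membership and measured values did not.

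The series measured messenger RNA in mouse embryonic fibroblasts (MEFs), cultured connective tissue cells, here of the C57BL/6 strain at embryonic day 13.5, grown in DMEM with 10% serum. There was 1 library from cells of genotype Ahi1-/- and 1 from wild-type (WT) cells, prepared from 1 ug of total RNA each for DNBSEQ sequencing. The labels name no added agent. Ahi1 encodes a transition zone protein at the base of the primary cilium. The sources used here do not give which part of Ahi1 was deleted, whether embryos were pooled, or how long the cells had been in culture. MEF cultures can hold other embryonic cell types beside fibroblasts. The column heads of the files read EXP and CON, which were taken as the mutant and the wild-type library, and each direction given here depends on it. Values marked Ahi1-/- are those of the library carrying that label.

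The libraries held 20820678 counts (Ahi1-/-) and 19067462 counts (WT). Ahi1 itself had 370 counts in the library labelled Ahi1-/- and 410 in WT (log2 ratio -0.16, 95% counting interval -0.37 to 0.05), so transcript counts did not check the genotype label. With 1 library per genotype there is no replicate spread and no test. Ratios are given as Ahi1-/- over WT after TMM scaling of the counts, with an exact 95% interval that covers counting error only and says nothing of the variation between cultures. TPM, the deposited length-normalised level, is used wherever different genes are set side by side. In bulk RNA, more cells of a type and more RNA per cell cannot be told apart. Of the markers fixed for other cell types, those of cartilage summed to 56.1 TPM in the library labelled Ahi1-/- and 970.5 in WT. Those of red blood cells summed to 17.2 TPM in Ahi1-/- and 1154 in WT. In contrast, 7 of 9 fibroblast markers passed the 2-fold limit upwards and 0 downwards, beside 16.0% and 10.3% of all genes. The fibroblast markers summed to 19502.5 TPM in Ahi1-/- and 7672 in WT. The part of such differences in cell makeup in the results below was not tested.

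Most of the adhesion genes that could be measured well were higher in the library labelled Ahi1-/-. Of the 39, 29 reached 50 counts in the library where they were higher. Among those 29, 20 were higher by 2-fold or more, 2 lower by as much, and 7 in between. Over all 12075 genes with that minimum, 16.0% were higher and 10.3% lower by the same limit. The median log2 ratio of the 36 genes with at least 10 counts in sum was 1.13 (interquartile range 0.25 to 2.50), beside a median of -0.01 over the 14485 genes with the same minimum. The laminin chains Lama1, Lama2 and Lama4, the fibroblast collagen receptor chain Itga11 and the alpha chains Itga8 and Itga9 held the 6 largest ratios, and Itga3 and Itgb7 were the 2 called lower. Of the 39 intervals, 24 lay wholly above a log2 ratio of 0, 3 wholly below it (Itga3, Itgb7 and Itga2b), and 12 included it. With many counts such an interval leaves out 0 at a small ratio, as for Lamc1 at 1.33-fold. The matching share over all genes was not computed, so these numbers describe no trait of the family.

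**Figure D1:**
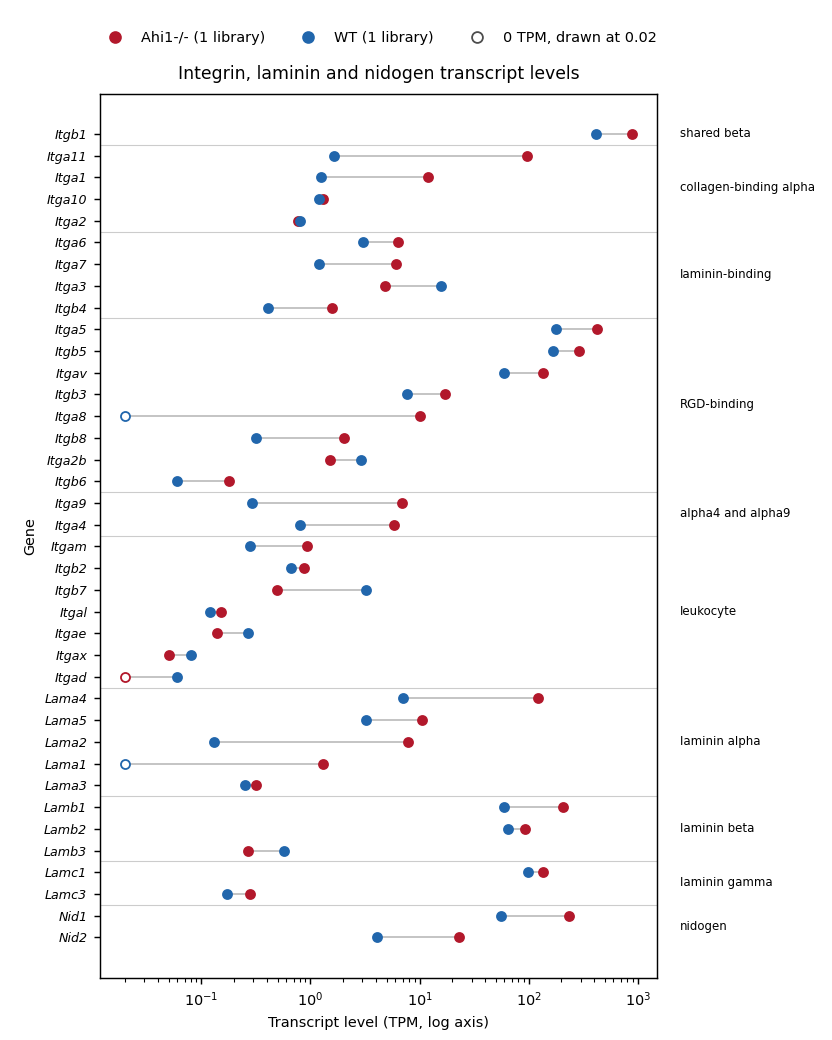
Transcript level in TPM (x axis, log scale) of 38 of the genes (y axis, grouped by role) in the single Ahi1-/- library (red) and the single WT library (blue); open circles mark 0 TPM. Itgb1 and Itga5 are the highest integrin chains in both libraries, and the longest gaps belong to Itga8, Itga11, Lama2 and Lama1.

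Itgb1, the beta chain that pairs with the widest range of alpha chains, was the most abundant of all 39 genes in both libraries. It had 33620 counts in the library labelled Ahi1-/- and 16093 in WT, or 887 TPM in Ahi1-/- and 414 in WT. The ratio was 2.07 (log2 1.05, interval 1.02 to 1.08), just past the 2-fold limit. Scaled by total counts, its log2 ratio was 0.94, inside the limit. Itgb1 lies on chromosome 8, where the median log2 ratio over 653 genes was -0.40. Itgb1 made up 74.1% of all integrin beta TPM in the library labelled Ahi1-/- and 69.7% in WT.

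Of the collagen receptor alpha chains, Itga11 and Itga1 were far higher in the library labelled Ahi1-/-, and Itga2 and Itga10 were nearly equal. Itga11, the alpha chain of the fibroblast receptor for fibrillar collagen, had 4335 counts in the library labelled Ahi1-/- and 75 in WT. The scaled count was 57.3-fold higher (log2 5.84, interval 5.51 to 6.19), and its level was 97.0 TPM in the library labelled Ahi1-/- and 1.63 TPM in WT. Itga1, whose product prefers collagen of basement membranes, had 655 counts in Ahi1-/- and 69 in WT and was 9.41-fold higher (log2 3.23, 2.87 to 3.61). Itga2, known from platelets and epithelia, had 50 counts in the library labelled Ahi1-/- and 53 in WT (log2 -0.10, -0.68 to 0.49). Itga10, the chain known from cartilage, had 60 counts in Ahi1-/- and 56 in WT (log2 0.09, -0.46 to 0.64), while the cartilage collagen gene Col2a1 was 24.98-fold lower (1572 counts in Ahi1-/- and 38926 in WT). Within the class, Itga11 made up 87.3% of the summed TPM in the library labelled Ahi1-/- and 33.5% in WT, and the sums were 111 TPM in Ahi1-/- and 4.87 in WT.

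Itga1 and Itga2 are adjacent protein-coding genes on chromosome 13 in the RefSeq annotation, and their ratios differed by more than their counting intervals. The start regions of Itga11, Itga1 and Itga2 are shown because Itga11 and Itga1 are the collagen receptor chains with large ratios and Itga2 is the neighbour with nearly equal counts. Each runs from 250 bases before to 50 bases after the annotated start (RefSeq, GRCm38.p6, 5′ to 3′ on the gene's strand). Capitals mark matches to 5 motifs searched on both strands, of which 1 is the CArG box. The GC box was searched as GGGCGG and the AP-1 site as TGANTCA. The TEAD site was searched as GGAATG and the promoter element known as the TATA box as TATAAA. Overlapping matches of different motifs were each counted. A match is a match of letters only.
Itga11 promoter, chr9:62677605-62677904, plus strand: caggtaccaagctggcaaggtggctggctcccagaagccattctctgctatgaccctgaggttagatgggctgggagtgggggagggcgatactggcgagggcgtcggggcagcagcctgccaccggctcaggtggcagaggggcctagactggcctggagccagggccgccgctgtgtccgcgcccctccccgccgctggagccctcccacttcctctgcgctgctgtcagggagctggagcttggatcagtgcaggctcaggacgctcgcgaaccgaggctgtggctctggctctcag
Itga1 promoter, chr13:115101915-115102214, minus strand: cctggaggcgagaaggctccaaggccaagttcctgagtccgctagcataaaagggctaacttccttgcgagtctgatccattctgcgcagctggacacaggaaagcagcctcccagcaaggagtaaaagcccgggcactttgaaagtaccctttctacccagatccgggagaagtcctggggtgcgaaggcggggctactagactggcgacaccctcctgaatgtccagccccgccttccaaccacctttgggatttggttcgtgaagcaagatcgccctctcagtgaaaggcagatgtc
Itga2 promoter, chr13:114932051-114932350, minus strand: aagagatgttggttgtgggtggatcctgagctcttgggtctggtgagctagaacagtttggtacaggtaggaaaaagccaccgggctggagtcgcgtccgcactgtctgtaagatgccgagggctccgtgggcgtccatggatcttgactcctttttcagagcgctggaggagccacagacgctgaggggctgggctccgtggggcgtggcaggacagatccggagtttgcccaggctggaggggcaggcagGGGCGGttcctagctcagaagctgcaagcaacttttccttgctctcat
Neither the Itga11 nor the Itga1 window held any of the 5 motifs, and the Itga2 window held 1 GC box. Pelo lies within Itga1 and had 600 counts in the library labelled Ahi1-/- and 450 in WT. Whether the counting used strand is not stated in the labels or headers, so reads in their overlap cannot be assigned with certainty. The same holds for Itgb4 with Galk1 (1544 counts in Ahi1-/- and 2103 in WT) and Nid2 with Rtraf (2570 counts in Ahi1-/- and 2383 in WT), which overlap in the annotation.

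Laminin-binding integrins differed in composition more than in their sum. Itga3, the main laminin receptor alpha chain of epithelia and kidney, had 213 counts in the library labelled Ahi1-/- and 709 in WT, 3.36-fold lower (log2 -1.75, -1.98 to -1.53). The other chains of the class were higher. Itga6, which pairs with Itgb1 or Itgb4, had 341 counts in Ahi1-/- and 168 in WT, a ratio of 2.01 (log2 1.01, 0.74 to 1.28), which fell inside the 2-fold limit when scaled by total counts. Itga7, best known as the laminin receptor chain of muscle, had 238 counts in Ahi1-/- and 54 in WT and was 4.37-fold higher (log2 2.13, 1.70 to 2.58). Itgb4, the hemidesmosome chain, had 87 counts in Ahi1-/- and 23 in WT and was 3.75-fold higher (log2 1.91, 1.23 to 2.64). Summed over Itga3, Itga6 and Itga7, the level was 17.3 TPM in the library labelled Ahi1-/- and 19.9 TPM in WT. Of that sum, Itga3 made up 28.1% in the library labelled Ahi1-/- and 78.8% in WT, whereas Itga7 made up 35.1% in Ahi1-/- and 5.97% in WT. Of 7 muscle markers listed, 3 were in the table. Desmin (Des) had 1240 counts in the library labelled Ahi1-/- and 84 in WT, while Ckm had 1 in Ahi1-/- and 0 in WT and Actn2 had 6 in Ahi1-/- and 2 in WT. The 6 epithelial markers in the table summed to 39.8 TPM in the library labelled Ahi1-/- and 16.2 TPM in WT. Of these, 4 reached the count minimum and all 4 were at least 2-fold higher, beside 16.0% of all genes. Krt8 had 421 counts in Ahi1-/- and 203 in WT, and Krt5 had 1 in Ahi1-/- and 0 in WT. The part of muscle and epithelial cells in the ratios of Itga7, Itgb4 and Itga3 was not tested.

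RGD-binding receptors held the most abundant alpha chains and differed by smaller factors, apart from Itga8 and Itgb8. Itga5, the fibronectin receptor chain, had 16965 counts in the library labelled Ahi1-/- and 7244 in WT, and was 2.32-fold higher (log2 1.22, 1.18 to 1.26). Its level was 425 TPM in the library labelled Ahi1-/- and 177 TPM in WT. Itgav, which pairs with Itgb1, Itgb3, Itgb5, Itgb6 or Itgb8, had 8780 counts in Ahi1-/- and 3971 in WT and was 2.19-fold higher. Itgb3, the vitronectin receptor chain, had 907 counts in Ahi1-/- and 412 in WT, 2.18-fold higher (log2 1.13, 0.96 to 1.30). Itgb5, a further partner of Itgav, had 8259 counts in Ahi1-/- and 4921 in WT and lay within 2-fold at a ratio of 1.66 (log2 0.73, 0.68 to 0.79). Itgb5 supplied 93.6% of the summed TPM of the partners Itgb3, Itgb5, Itgb6 and Itgb8 in the library labelled Ahi1-/- and 95.4% in WT.

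Itga8, a receptor chain for nephronectin in the kidney and a chain of mesenchymal and smooth muscle cells, had 540 counts in the library labelled Ahi1-/- and 0 in WT. Its level was 10.2 TPM in the library labelled Ahi1-/- and it was listed at 0 in WT. Against a floor of 3 counts in the WT library it was 178-fold higher, and the counting interval reached down to 145-fold. Its ligand gene Npnt, which encodes nephronectin, had 620 counts in Ahi1-/- and 45 in WT and was 13.7-fold higher. Itgb8, which with Itgav activates latent TGF-beta, had 57 counts in Ahi1-/- and 9 in WT and was 6.28-fold higher (log2 2.65, 1.63 to 3.85). Itgb6, the epithelial counterpart, had 7 counts in Ahi1-/- and 2 in WT, too few for a statement. Itga2b, the platelet chain, had 47 counts in the library labelled Ahi1-/- and 93 in WT (log2 -0.998, -1.54 to -0.48), just inside the 2-fold limit, which it passed when scaled by total counts. The 7 platelet markers summed to 50.05 TPM in the library labelled Ahi1-/- and 16.3 TPM in WT. Ppbp, which encodes a chemokine of platelets, had 367 counts in Ahi1-/- and 15 in WT. It alone gave 38.8 TPM of that sum in Ahi1-/- and 1.55 in WT. Of the 4 platelet markers with at least 10 counts in sum, 1 had a log2 ratio above 0 and 3 below, with a median of -0.42. Gp1bb had 182 counts in Ahi1-/- and 230 in WT, and Gp1ba had 23 in Ahi1-/- and 32 in WT. Pf4 and Gp9 had 4 and 1 counts in the library labelled Ahi1-/- and 8 and 2 in WT. The part of platelet lineage cells in the Itga2b ratio was not tested.
Itga8 promoter, chr2:12301895-12302194, minus strand: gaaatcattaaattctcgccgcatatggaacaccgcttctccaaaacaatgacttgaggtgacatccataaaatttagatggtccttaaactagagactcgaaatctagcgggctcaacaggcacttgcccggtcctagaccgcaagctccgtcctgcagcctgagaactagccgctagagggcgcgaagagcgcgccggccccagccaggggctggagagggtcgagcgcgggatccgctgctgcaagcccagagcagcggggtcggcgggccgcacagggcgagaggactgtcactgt
The start region of Itga8 is shown because this gene had the largest ratio of the 39, and it held none of the 5 motifs.

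Itga4 and Itga9, closely related alpha chains, were both higher. Itga9, a receptor chain for tenascin C and other ligands, had 438 counts in the library labelled Ahi1-/- and 19 in WT, a 22.9-fold difference (log2 4.51, 3.85 to 5.26). Itga4, whose product binds VCAM-1 and fibronectin and is known from leukocytes and the neural crest, had 521 counts in Ahi1-/- and 73 in WT and was 7.07-fold higher (log2 2.82, 2.47 to 3.20). Tnc, which encodes tenascin C, was 18.2-fold higher (118006 counts in Ahi1-/- and 6437 in WT), while Vcam1 had 3357 counts in Ahi1-/- and 3233 in WT.

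Of the 7 integrin chains of leukocytes, Itgb7 alone reached the count minimum, and it was lower. Itgal, Itgax, Itgad and Itgae, alpha chains of lymphoid and myeloid cells, had 7, 2, 0 and 6 counts in the library labelled Ahi1-/- and 6, 3, 2 and 11 in WT. Itgb2, their common beta chain except for Itgae, had 22 counts in Ahi1-/- and 17 in WT (log2 0.36, -0.62 to 1.36). Itgam, the macrophage chain, had 39 counts in Ahi1-/- and 12 in WT, with a log2 ratio of 1.69 (0.72 to 2.76), under the minimum for a call. Itgb7, the beta chain that pairs with Itga4 or Itgae in lymphocytes, had 12 counts in the library labelled Ahi1-/- and 79 in WT, 6.64-fold lower (log2 -2.73, -3.74 to -1.85). The 8 leukocyte markers summed to 49.2 TPM in the library labelled Ahi1-/- and 35.2 TPM in WT, and none was at 0. Lyz2 alone gave 34.2 TPM of that sum in Ahi1-/- and 10.2 in WT. Of the 8 markers, 3 had a log2 ratio above 0 and 5 below, with a median of -0.51. They moved in both directions, since Lyz2 was 3.25-fold higher (315 counts in Ahi1-/- and 96 in WT), Adgre1 had 39 counts in Ahi1-/- and 4 in WT, Coro1a was 12.5-fold lower (11 counts in Ahi1-/- and 136 in WT) and Ptprc had 10 counts in Ahi1-/- and 23 in WT. Fermt3, the kindlin of blood cells, was 6.68-fold lower (8 counts in Ahi1-/- and 53 in WT). The part of blood cells in the Itgb7 ratio was not tested.

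**Figure D2:**
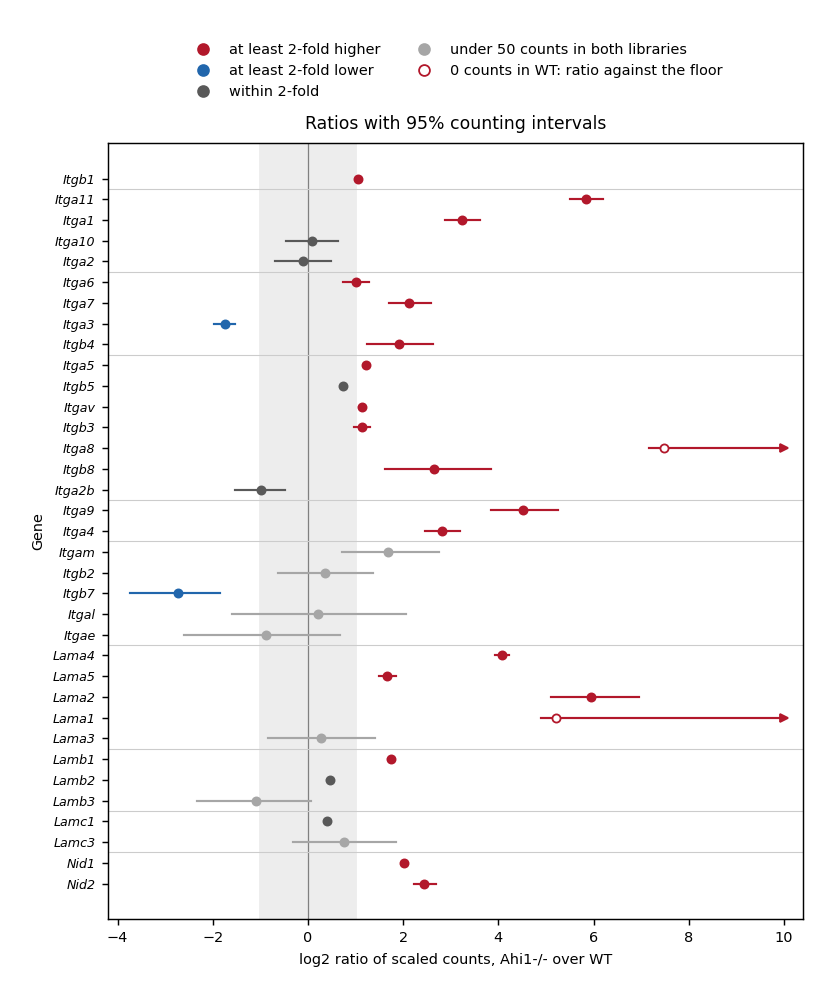
log2 ratio of scaled counts, Ahi1-/- over WT (x axis), for 35 genes with at least 10 counts in sum, with exact 95% counting intervals as lines; the grey band is the 2-fold range, and an arrow marks an interval without an upper end. Laminin alpha chains other than Lama3 lie right of the band, Lamc1 and Lamc3 inside it, and Itga3, Itgb7 and Lamb3 left of it. Lamb3 is under the count minimum for a call.

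Among laminins, Lama2, Lama1 and Lama4, all alpha chains, had the largest ratios. Lama4, the alpha chain of mesenchymal and vascular laminins, had 6765 counts in the library labelled Ahi1-/- and 396 in WT. The scaled count was 16.9-fold higher (log2 4.08, 3.94 to 4.23), and the level was 123 TPM in the library labelled Ahi1-/- and 7.05 TPM in WT. Lama2, the alpha chain of merosin in muscle and peripheral nerve, had 688 counts in Ahi1-/- and 11 in WT and was 62.0-fold higher (log2 5.95, 5.11 to 6.96). Lama1, the alpha chain of early embryonic basement membranes, had 113 counts in the library labelled Ahi1-/- and 0 in WT. Against the floor of 3 counts it was 37.3-fold higher, with the counting interval reaching down to 29.9-fold. It lies on chromosome 17, whose 603 genes had a median log2 ratio of -0.32. Lama2 and Lama4 lie on chromosome 10, whose 587 genes had a median of 0.16. Lama5, the widespread alpha chain of mature basement membranes, had 1097 counts in Ahi1-/- and 344 in WT and was 3.16-fold higher (log2 1.66, 1.48 to 1.84). Lama3, the epithelial chain, had 17 counts in Ahi1-/- and 14 in WT (log2 0.27, -0.84 to 1.40). Lama1, Lama2, Lama4 and Lama5 were thus all past the 2-fold limit, and Lama3 was under the count minimum.

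Lama4 is also a chain of vascular laminin, and endothelial markers were near 0 in both libraries. The 8 genes on that list summed to 1.66 TPM in the library labelled Ahi1-/- and 2.58 TPM in WT, and each had at most 20 counts in Ahi1-/- and at most 24 in WT. Of the 6 with at least 10 counts in sum, 5 had a log2 ratio below 0 and 1 above it, with a median of -1.69. Pecam1 had 2 counts in Ahi1-/- and 7 in WT, Cdh5 had 1 in Ahi1-/- and 9 in WT, and Tie1 had 0 in Ahi1-/- and 20 in WT. Vwf had 7 counts in Ahi1-/- and 24 in WT, and Esam had 3 in Ahi1-/- and 9 in WT. Kdr had 20 in both, Tek had 9 in Ahi1-/- and 8 in WT, and Emcn had 8 in Ahi1-/- and 1 in WT. The 6 Schwann and neural crest markers summed to 5.17 TPM in the library labelled Ahi1-/- and 4.07 TPM in WT. The glial marker Sox10 had 30 counts in Ahi1-/- and 0 in WT. The part of endothelial cells in the Lama4 ratio, and of Schwann and neural crest cells in the Lama2 ratio, was not tested.

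Of the beta and gamma chains, Lamb1 alone passed the 2-fold limit with the minimum count. Lamb1, the common beta chain, had 10737 counts in the library labelled Ahi1-/- and 3168 in WT, 3.36-fold higher (log2 1.75, 1.69 to 1.81). Lamb2, the beta chain of synaptic, muscle and glomerular laminins, had 4719 counts in Ahi1-/- and 3404 in WT, a ratio of 1.37 (log2 0.46, 0.39 to 0.52). Lamc1, the gamma chain shared by most laminins, had 9293 counts in Ahi1-/- and 6939 in WT, a ratio of 1.33 (log2 0.41, 0.36 to 0.45). It lies on chromosome 1, whose 686 genes had a median log2 ratio of 0.28. Lamb3, a beta chain of epithelia, had 10 counts in Ahi1-/- and 21 in WT, and Lamc3 had 22 in Ahi1-/- and 13 in WT, both under the minimum. Lamb1 was 2.23 times as abundant as Lamb2 in TPM in the library labelled Ahi1-/- and 0.912 times as abundant in WT.
Lama2 promoter, chr10:27616893-27617192, minus strand: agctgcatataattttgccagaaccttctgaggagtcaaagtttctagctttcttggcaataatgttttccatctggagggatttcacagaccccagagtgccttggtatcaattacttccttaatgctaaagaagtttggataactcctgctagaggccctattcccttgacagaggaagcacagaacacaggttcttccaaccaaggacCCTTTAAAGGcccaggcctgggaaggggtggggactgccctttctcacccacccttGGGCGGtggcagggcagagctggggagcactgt
The Lama2 start region (RefSeq, GRCm38.p6) is shown as that of the laminin chain with the largest ratio among those counted in both libraries, and its capitals mark 1 CArG box and 1 GC box. The CArG box is the DNA motif of serum response factor. It was found in 2 of 27 start regions of the genes under study (7.41%) and in 1.63% of all 32851 in the table. The match outside Lama2 lay in a start region of Itgb6, whose counts were too few for a statement.

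The ratio of laminin alpha to gamma transcripts differed between the libraries. Summed over the 5 alpha chains, the level was 143 TPM in the library labelled Ahi1-/- and 10.7 TPM in WT, while Lamc1 stood at 134 TPM in Ahi1-/- and 97.8 in WT. The alpha sum was thus 1.07 times the Lamc1 level in the library labelled Ahi1-/- and 0.109 times in WT. For the 3 beta chains the same quotient was 2.23 in the library labelled Ahi1-/- and 1.28 in WT. These quotients are taken within a library, so they do not depend on how the libraries were scaled to each other. Lama4 made up 86.0% of the alpha sum in the library labelled Ahi1-/- and 66.1% in WT, and Lama5 made up 7.39% in Ahi1-/- and 30.3% in WT.

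Both nidogens were higher. Nid1 had 12933 counts in the library labelled Ahi1-/- and 3150 in WT, 4.07-fold higher (log2 2.02, 1.97 to 2.08), and its level was 236 TPM in the library labelled Ahi1-/- and 56.1 TPM in WT. Nid2 had 1012 counts in Ahi1-/- and 184 in WT and was 5.45-fold higher (log2 2.45, 2.22 to 2.68). Together they stood at 1.93 times the Lamc1 level in the library labelled Ahi1-/- and 0.615 times in WT. Nid1 made up 91.2% of nidogen TPM in the library labelled Ahi1-/- and 93.2% in WT.

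**Figure D3:**
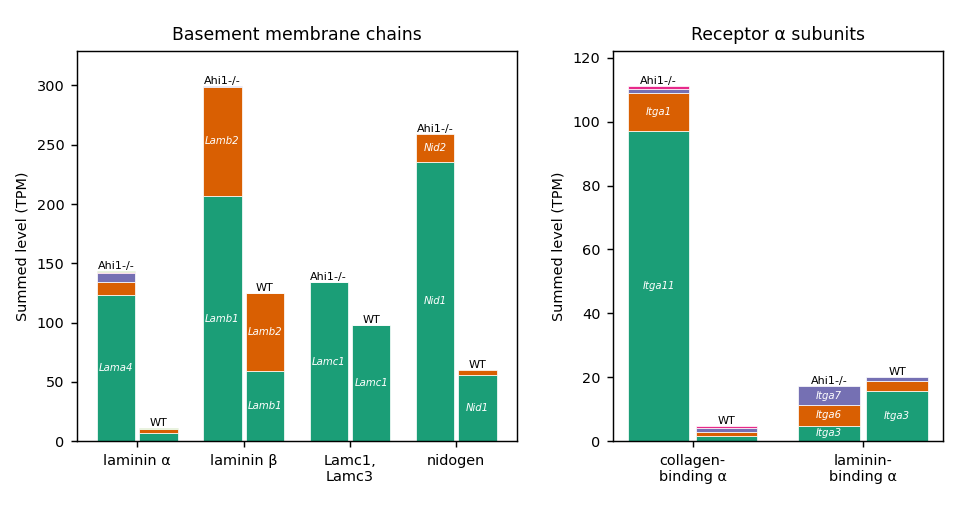
Summed level in TPM (y axis, from 0) of laminin alpha and beta chains, Lamc1 with Lamc3, and nidogens (left) and of collagen-binding and laminin-binding integrin alpha chains (right), with the Ahi1-/- library left of the WT library in each pair; segments run from the bottom as Lama4, Lama5, Lama2, Lama1, Lama3, then Lamb1, Lamb2, Lamb3, then Lamc1, Lamc3, then Nid1, Nid2, then Itga11, Itga1, Itga10, Itga2, then Itga3, Itga6, Itga7. The alpha sum is 143 TPM in the library labelled Ahi1-/- and 10.7 TPM in WT, whereas the laminin-binding integrin sum is 17.3 TPM in Ahi1-/- and 19.9 in WT with Itga3 at 28.1% of it in Ahi1-/- and 78.8% in WT.

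Chains act as complexes, so the genes were also paired as the 24 known integrin heterodimers and as 10 laminin trimers that hold Lamc1. The chain with the lowest TPM in each complex is given as a description of transcripts, since no protein was measured. A level of 1 TPM was used to call a chain present, a limit chosen with the data known. In the library labelled Ahi1-/-, 16 of the 24 heterodimers had both chains at 1 TPM or more, and in WT 11 did. The 5 pairs that differed were Itga4, Itga8 and Itga9 with Itgb1, Itgav with Itgb8, and Itga6 with Itgb4. In 12 heterodimers both chains passed the 2-fold limit upwards. Many of them share a chain, so they are not separate observations. The 16.0% of all genes with the count minimum is a share of single genes, and none was computed for pairs. Of these 12, only Itgav with Itgb3 and Itgav with Itgb8 hold neither Itgb1 nor Itga6. When scaled by total counts, Itgb1 and Itga6 lay within 2-fold, so the other pairs no longer passed. Itga5 with Itgb1, the classical fibronectin receptor, had the highest lower chain of the 24 in both libraries, set by Itga5 at 425 TPM in Ahi1-/- and 177 TPM in WT.

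The alpha chain was the lower of the pair in all heterodimers with Itgb1. The 12 alpha chains that pair with Itgb1 summed to 713 TPM in the library labelled Ahi1-/- and 263 TPM in WT, or 0.804 times the Itgb1 level in Ahi1-/- and 0.635 times in WT. Itga11 took 13.6% of that sum in the library labelled Ahi1-/- and 0.619% in WT, while Itga5 took 59.7% in Ahi1-/- and 67.4% in WT, and Itga3 took 0.682% in Ahi1-/- and 5.97% in WT.

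For laminins, 8 of the 10 trimers had all chains at 1 TPM or more in the library labelled Ahi1-/-, and 4 did in WT. As for the heterodimers, no share of all genes stands beside these numbers. The trimers of Lama1 and of Lama2 with Lamb1 or Lamb2 and Lamc1 made the difference. In 0 of the 10 did all 3 chains pass the 2-fold limit, and Lamc1, which each contains, lay within it. For the trimer of Lama4, Lamb1 and Lamc1 (laminin-411), the lowest chain was Lama4 at 123 TPM in the library labelled Ahi1-/- and at 7.05 TPM in WT. For Lama4, Lamb2 and Lamc1 (laminin-421), it was Lamb2 at 92.5 TPM in the library labelled Ahi1-/- and Lama4 at 7.05 TPM in WT.

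**Figure D4:**
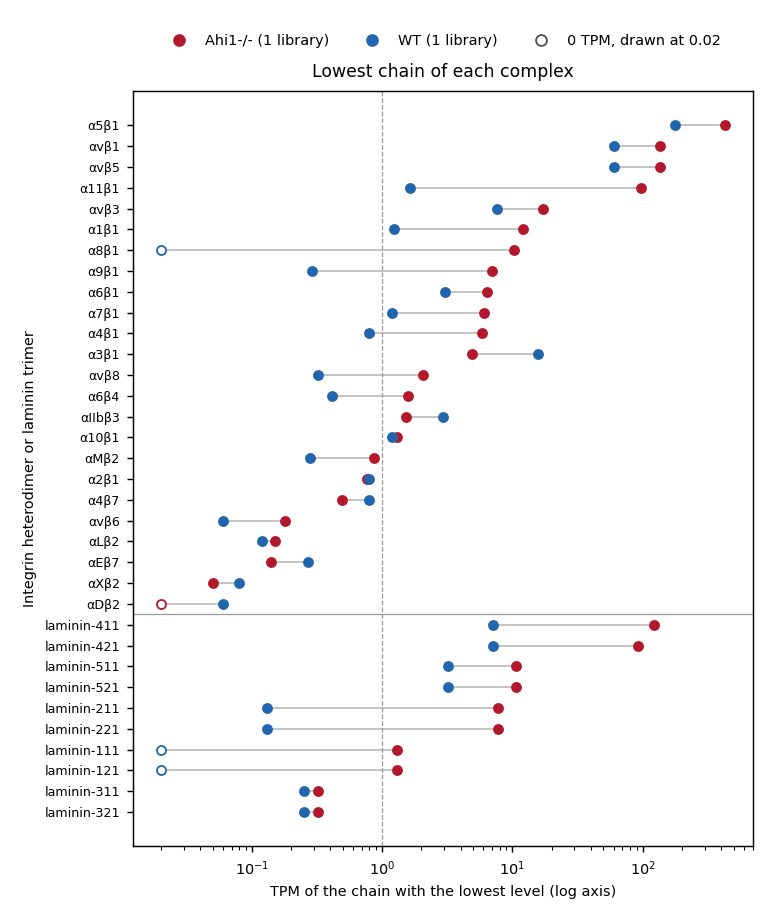
TPM of the lowest chain (x axis, log scale) of each of 24 integrin heterodimers and 10 laminin trimers (y axis) in the single Ahi1-/- library (red) and the single WT library (blue); the dashed line is 1 TPM and open circles mark 0. The laminins with Lama4 reach 123 and 92.5 TPM in the library labelled Ahi1-/- against 7.05 TPM in WT, and the leukocyte integrins lie left of the line in both.

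The ligands and partners of these receptors were examined as 4 lists. Of 25 other integrin ligands listed, 20 were in the table and 18 reached the count minimum. Of these 12 were higher and 1 was lower by the 2-fold limit, beside 16.0% and 10.3% of all genes with that minimum, and their median was 2.31 in log2. Fbn2, a microfibril protein with an RGD site, had 5937 counts in the library labelled Ahi1-/- and 6 in WT, and Icam1, a ligand of leukocyte integrins, had 288 in Ahi1-/- and 7 in WT. Ccn2, a matricellular ligand, was 25.2-fold higher (22097 counts in Ahi1-/- and 868 in WT), and Ibsp, the sialoprotein of bone, was 37.3-fold lower (8 counts in Ahi1-/- and 296 in WT). Fn1, which encodes fibronectin and was named after its value was seen, was 4.88-fold higher (150661 counts in Ahi1-/- and 30575 in WT).

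Basement membrane partners passed the limit upwards in 9 of 19 genes and downwards in 1, beside 16.0% and 10.3% of all genes, and their median log2 ratio was 0.69. Col4a1 and Col4a2, the chains of the common type IV collagen that nidogen binds, were 118-fold and 109-fold higher (20256 and 16075 counts in the library labelled Ahi1-/-, against 170 and 146 in WT). Both lie on chromosome 8. Col15a1, a collagen of basement membrane zones, was 12.9-fold higher (532 counts in Ahi1-/- and 41 in WT). Col4a6, a chain of the smooth muscle and epithelial form, was 7.19-fold lower (105 counts in Ahi1-/- and 748 in WT). Hspg2 and Agrn, which encode the heparan sulfate proteoglycans perlecan and agrin, lay within 2-fold at ratios of 1.61 and 1.33. Dag1, the dystroglycan receptor for laminin, had 5659 counts in Ahi1-/- and 6086 in WT.

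Adhesion adaptors, the proteins that couple integrin tails to actin, passed it upwards in 12 of 29 genes and downwards in 2, beside the same 16.0% and 10.3% of all genes, with a median log2 ratio of 0.83 over the 30 genes with at least 10 counts in sum. Tgfb1i1, which encodes the paxillin relative Hic-5, was 64.7-fold higher (5552 counts in Ahi1-/- and 85 in WT), and Lims2, which encodes the kinase partner PINCH2, was 32.1-fold higher (356 in Ahi1-/- and 11 in WT). Parvb, a parvin and with Fermt3 the other gene past the limit downwards, was 2.09-fold lower (457 counts in Ahi1-/- and 945 in WT). Nexn, an actin-binding protein, was 6.67-fold higher (1427 counts in Ahi1-/- and 212 in WT). Tln1 (talin) and Fermt2 (kindlin-2), which bind beta chain tails, and Ilk lay within 2-fold. Tln1 had 16212 counts in Ahi1-/- and 10016 in WT, Fermt2 had 7913 in Ahi1-/- and 4120 in WT, and Ilk had 6710 in Ahi1-/- and 3696 in WT. Pxn (paxillin) and Ptk2 (focal adhesion kinase) had ratios of 0.741 and 0.937. Integrin-associated membrane proteins passed it upwards in 4 of 13 genes and downwards in 0, beside 16.0% and 10.3% of all genes, with a median log2 ratio of 0.64. The 4 were led by Cd81 at 5.33-fold and Cav1 at 4.57-fold, followed by Plaur at 2.70-fold and Lrp1 at 2.61-fold.

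**Figure D5:**
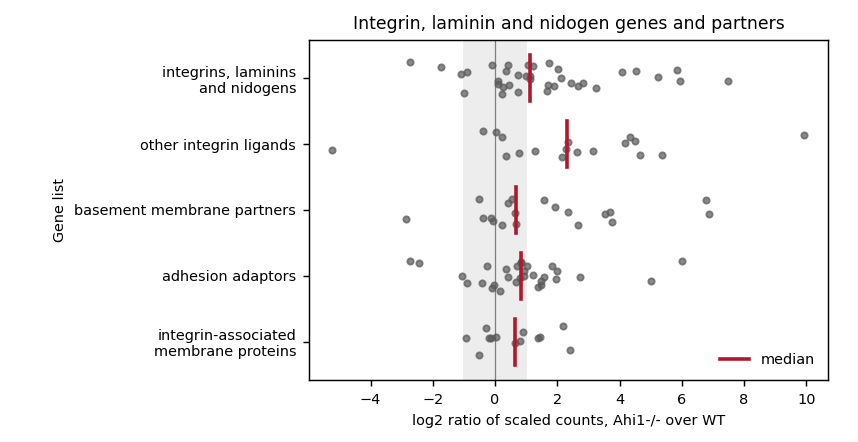
log2 ratio of scaled counts, Ahi1-/- over WT (x axis), of each gene with at least 10 counts in sum (points, spread vertically for visibility) in the integrin, laminin and nidogen set and in 4 partner lists; red bars are medians and the grey band is the 2-fold range. The medians are 1.13, 2.31, 0.69, 0.83 and 0.64 from top to bottom.

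The position of the genes was compared with their ratios. The 39 genes lie on 15 chromosomes, with 7 on chromosome 2 and 5 on chromosome 11. Of 25 protein-coding genes outside the family that directly neighbour the 20 higher genes and reached 50 counts, 22 lay within 2-fold, 2 were higher (Nrp1 and Fam110c) and 1 was lower (Zfp385a), beside 16.0% higher and 10.3% lower over all genes. Of the 24 genes with an entry in the RefSeq table of start regions, which holds 27 windows for them, the GC box was in 48.1% of windows and TATAAA in 0%, against 35.7% and 13.6% of all 32851 windows. The AP-1 site was in 3 of the 27 and the TEAD site in 4, or 11.1% and 14.8%, against 7.81% and 14.7% overall.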

How the data were processed

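Messenger RNA of 1 Ahi1-/- and 1 wild-type MEF library was measured. The authors deposited expected counts per gene (64.4% and 65.1% whole) and TPM in the same table. FPKM for 3872 genes stand in another deposited table. Per the submitters' processing notes, the tools were HISAT2 2.0.4 with Bowtie2 2.2.5, plus RSEM 1.2.12, on build mm8. Annotation, strand use and filters are not stated there. Of the value columns, 6 were read and 0 were not.

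Expected counts were rounded and scaled by TMM (edgeR 4.0.16, R 4.3.3). Ratio intervals are exact Clopper-Pearson intervals on the share of both counts in 1 library and cover counting error only; reads are not independent molecules. A call needed 2-fold and 50 counts in whichever library was higher. A count of 0 was set to a floor of 3 counts (0.150 CPM in Ahi1-/-, 0.151 CPM in WT). The counts of calls cover every gene of the family, and the values of 1 gene are not reported here. From each partner list up to 4 called genes with the largest change are named, and other partners were chosen after seeing their values. The calculation was tested on simulated data. Members, lists and limits were chosen with earlier results of these data known. RefSeq GRCm38.p6 supplied chromosomes, neighbours and start regions (39 of 39 genes matched, 24 with a start region). It is not the build in the notes. Alternatives were DESeq2 1.42.0 factors, total counts, upper-quartile scaling, TPM, unrounded counts, 0.5 added counts, other minimums and folds, and subtraction of chromosome medians. Python 3.11.15 with scipy 1.17.1 was used.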

Additional observations from a re-analysis of the deposited data

How the results depend on the processing

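The number of genes at least 2-fold higher was 20 and ranged from 15 (3-fold limit, 10.8% of all genes) to 21 (minimum of 20 counts, 18.1% of all genes, or 1.5-fold limit, 23.6%). The number lower was 2 and ranged from 1 (minimum of 200 counts, which removes Itgb7, 9.53% of all genes) to 3 (total counts, 12.7%; minimum of 20 counts, 11.01%; 1.5-fold limit, 21.6%; chromosome medians subtracted, 8.56%). The median log2 ratio was 1.13 and ranged from 1.02 with total counts to 1.33 with chromosome medians subtracted. No direction of a called gene changed. Total-count scaling lowered every log2 ratio by 0.11, and Itgb1 (log2 0.94) and Itga6 then lay within 2-fold while Itga2b passed the lower limit. With 1 library per genotype no library could be left out. No paired analysis was possible because each genotype has 1 library. Genes with few counts, such as Itgb6, Itgal and Lamc3, were limited by depth.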

Other observations

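The authors' deposited FPKM table holds 22 of the 39 genes and 20 of the 22 called ones. All genes in it with values above 0 in both libraries differed at least 2-fold in FPKM. Itgb1 and Itga6, the called genes nearest to 2-fold, are not among its rows. Over 1133 genes with at least 5 FPKM in both libraries, the FPKM ratio was 0.894 times the TPM ratio, which would place Itgb1 and Itga6 at 1.91 and 1.87 on the FPKM scale. Itga2b and Itgam, which were not called from counts, are in the authors' deposited table with FPKM of 0.67 and 0.4 in the library labelled Ahi1-/-, against 1.44 and 0.14 in WT.

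Itga7 stood out in the relation of counts to TPM. The count divided by the TPM reflects the mean length of the transcripts a gene was assigned. For Itga7 this quotient in the library labelled Ahi1-/- was 88.7% of that in WT, relative to the median of 10712 genes, a larger shift than in 98.1% of those genes. Among the 20 other integrin, laminin and nidogen genes with at least 50 counts and 0.5 TPM in both libraries, the largest shift was 0.01 in log2, against -0.17 for Itga7. Itga7 was also the gene whose ratio differed most between units among these, at 4.37 from counts and 5.09 from TPM. Counts per gene do not say which transcripts differed.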
